A study of Rattus norvegicus with 2 samples.

Results

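The oncofetal genes of the HMGA, LIN28, IGF2BP and MYC families were examined in small molecule-induced neurons (SMiNs) and in undifferentiated C6 glioma. The 10 genes were Hmga1, Hmga2, Lin28a, Lin28b, Igf2bp1, Igf2bp2, Igf2bp3, Myc, Mycn and Mycl. They were chosen by gene symbol with earlier results of these arrays known, so their differences are given as a description. Of the 10 genes, 9 had a probe set that was annotated to that gene alone, 1 probe set each, among 18166 named genes. Igf2bp3 was not analysed here. C6 glioma is an established rat glial tumor line. The SMiN sample was this line treated for 35 days with the GSK3 inhibitor CHIR99021 at 20 μM and with forskolin at 100 μM, an activator of adenylyl cyclase that raises cAMP. By the study's methods, SMiNs were made on Matrigel in a neural induction medium with N2, B27, BDNF and GDNF, and undifferentiated C6 glioma grew in medium with fetal bovine serum. GEO's labels give the serum medium and the treatment for both samples, and the study's methods were followed here. Medium, substrate, time in culture and the small molecules therefore cannot be told apart.

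Many of these genes are highly active in the embryo, much less so in adult tissue, and active again in tumors. HMGA proteins bend AT-rich DNA and open chromatin. LIN28 proteins block the maturation of the let-7 microRNAs, and let-7 in turn represses Hmga2, Lin28b, the Igf2bp genes and Myc. IGF2BP proteins bind messages, Myc among them, and protect them from decay. MYC proteins pair with MAX to drive growth genes, and in the developing brain Hmga2, Lin28b and Mycn keep neural progenitors dividing.

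There was 1 array per condition. No spread between replicates exists, and no p-value or SD is given. Values are log2 signals of probe sets, and a difference is SMiN minus C6 glioma. A probe set has its own brightness, so levels were compared between the arrays and not between genes. The background of an array (its floor) was taken as the 95th percentile over 232 vomeronasal and olfactory receptor probe sets, genes that these cells are assumed not to express. The floor was 5.05 on the SMiN array and 4.68 on the C6 glioma array. A fold whose dimmer value lay under its floor was calculated with the floor in its place, and such lower bounds are written "at least". Exactly the same value stood on both arrays for 22.7% of named genes, so an equal value is not read as an unchanged transcript.

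Of the 9 measured genes, 4 had a signal lower by 2-fold or more in SMiNs (Hmga2, Igf2bp2, Myc and Hmga1) and none had one higher by as much. Over all named genes, 8.12% were lower by that much and 4.27% higher. The median difference of the 9 genes was -0.67, and that of all named genes was 0. The C6 glioma signal limited which genes could be called. Only these 4 had a C6 glioma signal at least 2-fold over the SMiN floor. The other 5 could not have shown a 2-fold fall above that floor. Among the 7285 named genes with such a C6 glioma signal, 18.7% were at least 2-fold lower in SMiNs, 67.9% had a lower value of any size and the median difference was -0.33. Since the genes were chosen on this contrast, nothing is read from these shares. The same shares are the background for every list count given below, also where they are not repeated, and no list was tested against them. In cell populations, a smaller share of cells with a transcript and less of it per cell cannot be told apart.

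**Figure D1:**
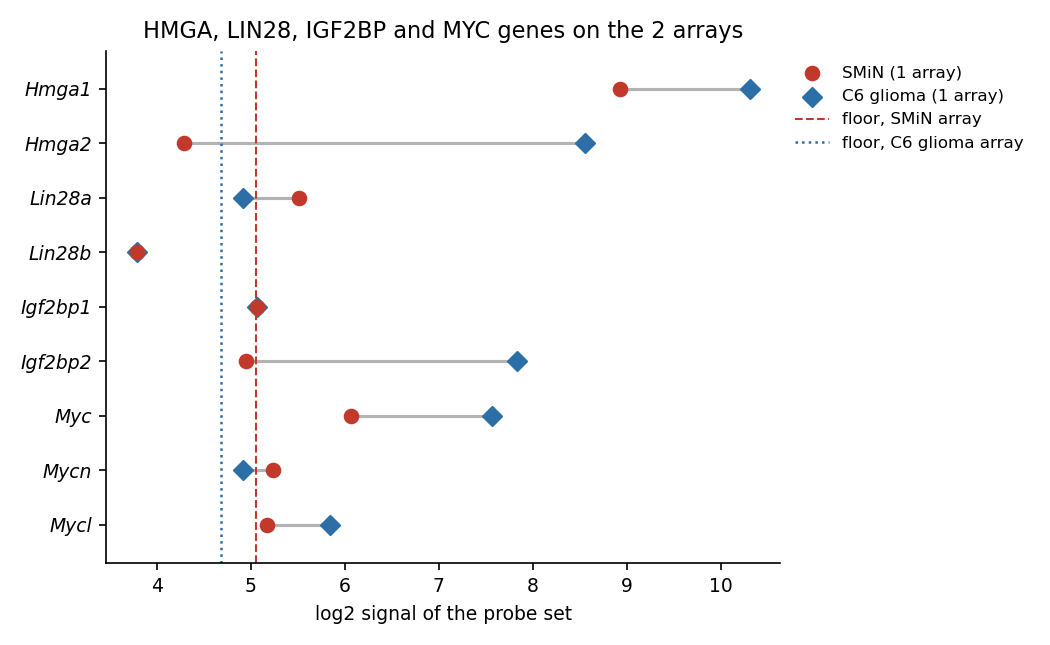
Log2 signal of each gene's probe set on the SMiN array (circles) and the C6 glioma array (diamonds), with each array's floor as a vertical line. Hmga2 and Igf2bp2 lie under the SMiN floor in SMiNs and more than 3 log2 units over the C6 glioma floor in C6 glioma, while Lin28a, Lin28b, Igf2bp1 and Mycn lie near or under the floors on both arrays.

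Both HMGA genes were lower in SMiNs. Hmga2, which encodes an architectural chromatin protein with AT-hooks that is best known from embryonic growth, had a log2 signal of 4.29 in SMiNs and 8.55 in C6 glioma. The deposited difference was -4.26, and the SMiN value lay under the floor. Against the floor, Hmga2 was at least 11.3-fold lower. Hmga1, its paralog, which dividing cells express widely, had a log2 signal of 8.93 in SMiNs and 10.31 in C6 glioma, 2.60-fold lower. In SMiNs Hmga1 still stood 3.88 log2 units over the floor. The Hmga1-like gene Hmga1l1, looked at after the values were seen, had 4.99 in SMiNs and 4.56 in C6 glioma, under the floor on both arrays. Whether Hmga1 probes also bind Hmga1l1 messages was not tested.

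Of 10 other high mobility group genes, 7 were measured. At 2-fold, 1 was higher and 0 were lower in SMiNs, and the median difference was 0.08. Over all named genes, 4.27% were higher and 8.12% lower by as much. The higher gene, Hmgb4, lay under the floor on both arrays. Hmgb2, a DNA-bending protein of dividing cells, had 7.44 in SMiNs and 8.17 in C6 glioma, a difference of -0.74. Hmgn1, a nucleosome-binding protein, had 8.71 in SMiNs and 9.20 in C6 glioma, and Hmgn3 had 8.15 in SMiNs and 7.40 in C6 glioma. Of these 7 genes, 6 had a C6 glioma signal at least 2-fold over the SMiN floor. Among all named genes with such a signal, 18.7% were at least 2-fold lower. The contrast with the HMGA genes was not tested.

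Igf2bp2 was lower and Igf2bp1 had an equal value. Igf2bp2, which binds messages of metabolism and growth and is the one family member that many adult tissues keep, had a log2 signal of 4.95 in SMiNs and 7.84 in C6 glioma. The SMiN value was 0.10 under the floor, and Igf2bp2 was at least 6.88-fold lower. Igf2bp1, the zipcode-binding protein that carries actin messages, had 5.07 on both arrays, 0.02 over the SMiN floor and 0.38 over the C6 glioma floor. In SMiNs the Igf2bp1 and Igf2bp2 probe sets therefore both lay within 0.5 log2 units of the floor. With a floor from 1360 receptor probe sets, chosen after the data were examined, the Igf2bp2 value of SMiNs lay over the floor (7.39-fold lower) and Hmga2 was at least 12.6-fold lower.

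The promoters of the HMGA and IGF2BP genes that were lower are shown as a description of their sequence. CRE sites were among the motifs searched because forskolin raises cAMP, which acts on them. Whether cAMP had a part in the lower signals was not tested, and neither was a shared control of these genes. The RefSeq promoter table (GRCr8) held 7 of the 10 genes and no entry for Igf2bp1, Myc or Mycn. Each line gives the 250 bases before the start. In Hmga2 the capitals mark the longest run of C and T, and in Hmga1 and Igf2bp2 they mark GC boxes and CRE half-sites.
Hmga2 promoter, chr7:57880342-57880591, minus strand: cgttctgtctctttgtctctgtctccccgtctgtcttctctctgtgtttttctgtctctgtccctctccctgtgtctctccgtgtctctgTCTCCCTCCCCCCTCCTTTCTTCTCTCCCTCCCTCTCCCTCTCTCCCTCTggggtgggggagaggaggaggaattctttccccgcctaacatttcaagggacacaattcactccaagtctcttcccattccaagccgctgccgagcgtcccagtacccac
Hmga1 promoter, chr20:5613258-5613507, plus strand: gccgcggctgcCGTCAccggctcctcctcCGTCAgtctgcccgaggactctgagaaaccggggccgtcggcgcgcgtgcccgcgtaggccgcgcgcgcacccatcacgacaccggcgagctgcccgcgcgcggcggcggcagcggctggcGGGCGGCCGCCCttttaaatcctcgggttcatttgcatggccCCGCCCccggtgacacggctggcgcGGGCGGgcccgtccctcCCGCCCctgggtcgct
Igf2bp2 promoter, chr11:92378658-92378907, plus strand: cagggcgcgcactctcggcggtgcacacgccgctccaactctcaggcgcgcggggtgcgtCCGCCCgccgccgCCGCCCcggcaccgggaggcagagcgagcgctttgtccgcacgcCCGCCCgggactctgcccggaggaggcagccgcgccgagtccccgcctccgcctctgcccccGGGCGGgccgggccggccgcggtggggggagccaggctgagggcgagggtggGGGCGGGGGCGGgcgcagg

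Both strands of these windows were searched for the CRE (TGACGTCA), its half-site (TGACG), the TCF/LEF site (CTTTGAT), the MYC E-box (CACGTG), the GC box (GGGCGG) and the TATA box (TATAAA). The half-site lies within the CRE. Hmga1 held 2 half-sites, 239 and 221 bases before the start, and 5 GC boxes. Igf2bp2 held 6 GC boxes and no half-site. Hmga2 held none of the 6 motifs. Of all 33469 promoters in the table, 18.2% held a half-site, 1.59% a full CRE, 3.15% a TCF/LEF site, 5.59% an E-box, 30.5% a GC box and 12.9% a TATA box. The Hmga2 window was 72.8% pyrimidine on its own strand, with an unbroken run of 50 C and T, and 0.066% of promoters had a run as long. This feature was singled out for Hmga2 alone, so the share is a description and not a test. The Igf2bp2 window was 82.4% GC, against a median of 51.2% over all promoters. Among the promoters of genes that were not lower by 2-fold, Mycl held a GC box and a TATA box, and Lin28a and Lin28b held none of the motifs. In the window of Igf2bp3 there were an E-box and a GC box. A match describes letters and does not show a bound site.

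**Figure D2:**
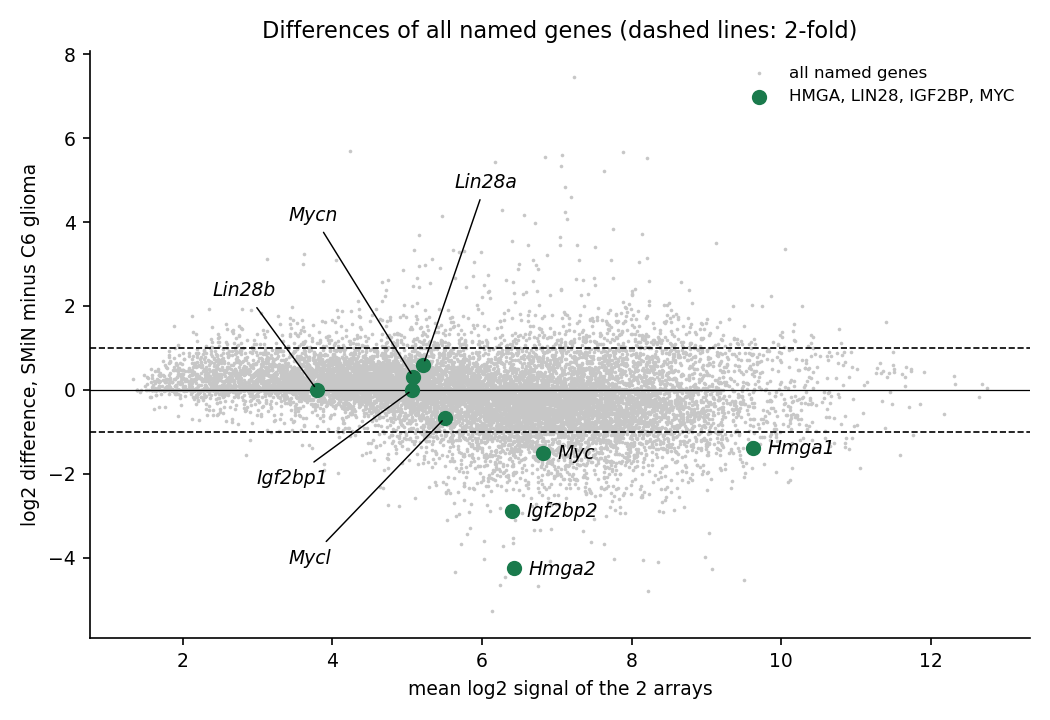
Log2 difference (SMiN minus C6 glioma) against the mean log2 signal of both arrays for all 18166 named genes (grey) and for the 9 measured genes (green), with dashed lines at 2-fold. Hmga2 (-4.26) and Igf2bp2 (-2.88) lie at the lower edge of the cloud as deposited, with SMiN values under the floor, and Lin28b, Igf2bp1, Mycn and Lin28a lie between the dashed lines at low signal.

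Of the MYC family, Myc was lower and the paralogs differed by less than 2-fold. Myc, the proto-oncogene that drives cell growth and ribosome production, had a log2 signal of 6.06 in SMiNs and 7.56 in C6 glioma, 2.83-fold lower. It stayed 1.01 log2 units over the floor in SMiNs, unlike Hmga2 and Igf2bp2. Mycl had 5.17 in SMiNs and 5.84 in C6 glioma, a difference of -0.67 that ended 0.12 over the SMiN floor. Mycn, the family member of neural progenitors and neuroblastoma, had 5.23 in SMiNs and 4.92 in C6 glioma, within 0.24 log2 units of the floor on both arrays. The rat gene Mycs, looked at after the values were seen, had 3.76 in SMiNs and 3.73 in C6 glioma, under the floor on both. No paralog was higher in SMiNs by 2-fold.

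Of 10 genes for MAX partners and the related MLX branch, 8 were measured, none differed by 2-fold and the median was -0.07. Mxd1, a MAX partner that opposes MYC in differentiating cells, had 6.34 in SMiNs and 5.75 in C6 glioma. Mxi1, another such repressor, had 7.32 in SMiNs and 7.93 in C6 glioma. Max was not analysed here. Of 20 genes that set the level or activity of MYC proteins, 17 were measured. In SMiNs 6 of them were lower by 2-fold or more and 0 higher, and the median was -0.44. A C6 glioma signal at least 2-fold over the SMiN floor was present for 16 of the 17. Among all named genes with such a signal, 18.7% were at least 2-fold lower and the median was -0.33. The 6 lower genes of the list included Bin1, which binds MYC and restrains it (3.03-fold), and Wdr5, a chromatin cofactor of MYC (2.68-fold). Ppp2r5a, a subunit of the phosphatase that acts on MYC, was 2.54-fold lower. Gsk3b, whose product marks MYC for degradation and is a target of CHIR99021, was 2.40-fold lower. Also lower were Aurka (2.20-fold) and Usp28 (2.01-fold).

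Genes that MYC is known to induce were examined as a list. Of 44 such genes, 39 were measured, 28 had a lower and 10 a higher value in SMiNs. By 2-fold or more, 3 were lower and 0 higher, beside 8.12% lower over all named genes. A C6 glioma signal at least 2-fold over the SMiN floor was present for 36 of the 39. Among all named genes with such a signal, 18.7% were at least 2-fold lower in SMiNs. A lower value of any size was found for 67.9% of them, and their median difference was -0.33. The list median was -0.46, and the list was not tested against these values. Shmt2, the mitochondrial enzyme that makes one-carbon units from serine, had 7.30 in SMiNs and 10.10 in C6 glioma, 6.94-fold lower. Ruvbl2, an ATPase of chromatin complexes, was 2.66-fold lower, and Odc1, the first enzyme of polyamine synthesis, was 2.49-fold lower. The nucleolar protein gene Ncl had 10.53 in SMiNs and 10.25 in C6 glioma. The count of 3 was 5 with each array centred on its median and 9 with each centred on its receptor mean. Of 13 genes that MYC is known to repress, 11 were measured, 1 was higher and 2 were lower by 2-fold or more, and the median was 0.01. Cdkn2b, an inhibitor of G1 kinases, had 6.04 in SMiNs and 4.88 in C6 glioma, 2.24-fold higher, and Cdkn1a had 8.17 in SMiNs and 7.88 in C6 glioma. Txnip, a regulator of glucose uptake, was at least 11.4-fold lower, and Pdgfrb was 5.39-fold lower, the opposite direction to Cdkn2b within the same list.

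The LIN28 genes lay near or under the floor. Lin28a had a log2 signal of 5.52 in SMiNs and 4.92 in C6 glioma, 1.52-fold higher and 0.46 over the SMiN floor. Lin28b had 3.79 on both arrays, under each floor, so no fold is given. Neither probe set stood more than 0.5 log2 units over the floor on either array. Trim71, another gene of early embryos that let-7 represses, also lay under the floor on both arrays, with 4.52 on each.

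The let-7 family is shown because LIN28 acts on its precursors and its seed pairs with Hmga2, Igf2bp and Myc messages. RefSeq (GRCr8) gave the mature sequence for the genes with a probe set, and the capitals mark the seed, bases 2 to 8.
rno-let-7a-5p: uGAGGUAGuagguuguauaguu
rno-let-7b-5p: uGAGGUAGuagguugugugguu
rno-let-7c-5p: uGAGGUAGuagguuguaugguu
rno-let-7d-5p: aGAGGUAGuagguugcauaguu
rno-let-7e-5p: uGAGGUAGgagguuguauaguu
rno-let-7f-5p: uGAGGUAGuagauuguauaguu
rno-let-7i-5p: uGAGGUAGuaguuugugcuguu
rno-miR-98-5p: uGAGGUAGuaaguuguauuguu

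All 8 of these sequences share the seed GAGGUAG and come from 11 genes on the array. The probe set annotated as Mirlet7f-1 was left out, because RefSeq gives that gene miR-3596d, which has another seed, from the strand opposite Mirlet7f-1os. Of the 11 genes, 9 had a higher and 2 a lower value in SMiNs, with a median difference of 0.49. Of 352 other microRNA genes, 180 were higher, 69 lower and 103 equal, with a median of 0.03. These were not matched to the let-7 genes on signal. Over the 232 receptor probe sets that set the floors, the mean difference was 0.22 and the median 0.08, and the let-7 values were not corrected for this. Only 4 of the 11 reached the floor on either array and 1, Mirlet7a1, on both. Mirlet7a1 had 6.43 in SMiNs and 5.75 in C6 glioma, 1.60-fold higher. Mirlet7e had 5.83 in SMiNs and 4.04 in C6 glioma, at least 2.22-fold higher. Mir98 had 5.05 in SMiNs, just under the floor, and 6.24 in C6 glioma, at least 2.28-fold lower. Mirlet7f-1os had 5.01 in SMiNs and 3.11 in C6 glioma, under the floor on both arrays. The family thus had members that differed in opposite directions, and Mirlet7a-2 (4.92 in SMiNs, 4.74 in C6 glioma) crossed only the C6 glioma floor. Whether such probe sets report mature microRNA or precursors was not tested.

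**Figure D3:**
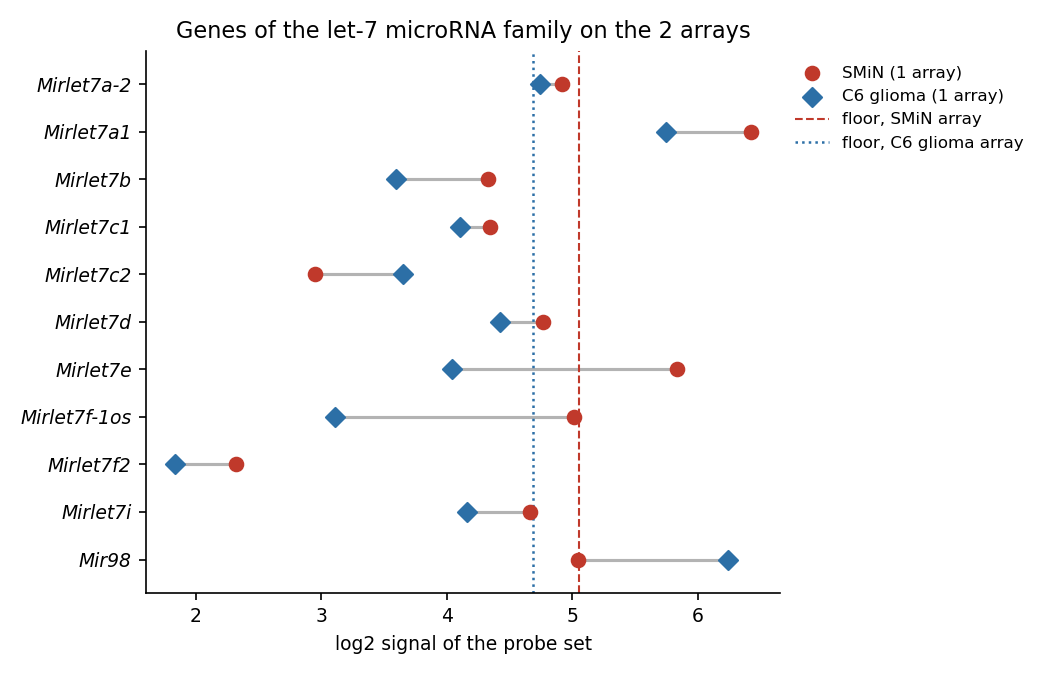
Log2 signal of the 11 genes that encode the let-7 seed on the SMiN array (circles) and the C6 glioma array (diamonds), with each array's floor as a vertical line. Mirlet7a1 and Mirlet7e are the genes over the SMiN floor in SMiNs, and Mir98 and Mirlet7c2 have the higher value in C6 glioma.

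Genes that make or destroy microRNAs were examined as a list. Of 18 listed, 17 were measured, 2 were at least 2-fold lower, none was at least 2-fold higher, and the median was -0.32. The value was lower in SMiNs for 12, higher for 2 and equal for 3. Over all named genes 8.12% were at least 2-fold lower. A C6 glioma signal at least 2-fold over the SMiN floor was present for 14 of the 17. Among all named genes with such a signal, 18.7% were at least 2-fold lower and the median was -0.33. The list was not tested against these values. Tut4, which tags let-7 precursors held by LIN28 for decay, had 5.97 in SMiNs and 7.43 in C6 glioma, 2.75-fold lower. Xpo5, which exports precursors from the nucleus, was 2.04-fold lower. Dis3l2, the exonuclease for tagged precursors, had 6.30 in SMiNs and 6.97 in C6 glioma. Of 27 let-7 targets outside the 10 genes, known from human or mouse cells, 24 were measured, with 6 lower and 2 higher by 2-fold or more and a median of -0.25. The lower ones included the phosphatase gene Dusp12 (3.32-fold), the insulin receptor gene Insr (3.25-fold), the G1 kinase gene Cdk6 (3.18-fold) and Fign, a microtubule-severing enzyme (at least 2.59-fold). The higher ones were the G1 cyclin gene Ccnd2 (11.3-fold) and the death receptor gene Fas (2.06-fold).

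Messages that IGF2BP proteins bind did not share a direction. Of 13 listed, 10 were measured, with 2 lower and 1 higher by 2-fold or more. Over all named genes, 8.12% were lower and 4.27% higher by as much. A C6 glioma signal at least 2-fold over the SMiN floor was present for 5 of the 10. Among all named genes with such a signal, 18.7% were at least 2-fold lower. The list median was 0.29, and -0.61 over the list's genes at or above a floor. Actb, the actin message that Igf2bp1 carries, had 11.22 in SMiNs and 12.30 in C6 glioma, 2.11-fold lower, and the actin-binding protein gene Cald1 was 2.24-fold lower. The transporter gene Abcb1a was 2.08-fold higher as deposited and at least 1.87-fold higher against the floor. Igf2, the growth factor for which the family is named, had 4.22 in SMiNs and 3.98 in C6 glioma, under the floor on both arrays. Of 19 genes for IGF2BP partners and the m6A machinery, 18 were measured, with 2 lower and 1 higher by 2-fold or more and a median of -0.21. All 18 had a C6 glioma signal at least 2-fold over the SMiN floor. Neither list was tested against the shares of all named genes. The m6A demethylase gene Fto was 3.25-fold lower, Elavl1, which stabilizes AU-rich messages, was 2.05-fold lower, and Matr3, a nuclear matrix RNA-binding protein gene, had 9.33 in SMiNs and 8.33 in C6 glioma.

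Of 14 other fetal or imprinted growth genes, 11 were measured and 1 was at least 2-fold lower in SMiNs, with none at least 2-fold higher and a median of 0. Over all named genes, 8.12% were lower and 4.27% higher by as much. A C6 glioma signal at least 2-fold over the SMiN floor was present for 3 of the 11. Plagl1, an imprinted zinc finger factor that restrains the cell cycle, had 4.67 in SMiNs and 7.55 in C6 glioma, at least 5.64-fold lower. Another 5 of these genes lay under the floor on both arrays, including Igf2.

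**Figure D4:**
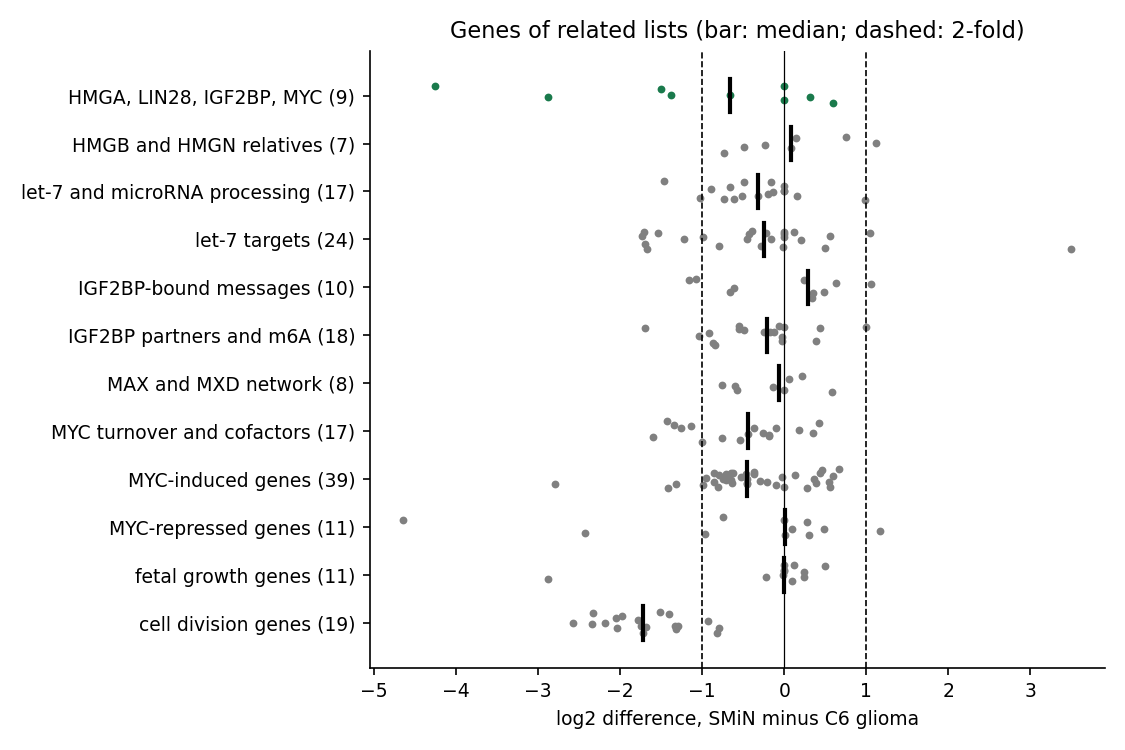
Log2 difference (SMiN minus C6 glioma) of every measured gene in the list of HMGA, LIN28, IGF2BP and MYC genes (green) and in 11 related lists (grey), with the number measured in brackets, list medians as bars and dashed lines at 2-fold. The oncofetal genes range from -4.26 to 0.60, and the cell division genes all lie below 0.

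Cell division genes were lower in SMiNs, as were Hmga1, Hmga2, Igf2bp2 and Myc among the 9 measured oncofetal genes. Of 20 listed, 19 were measured and 16 were lower in SMiNs by 2-fold or more. Over all named genes, 8.12% were lower and 4.27% higher by as much. All 19 had a C6 glioma signal at least 2-fold over the SMiN floor. Among all named genes with such a signal, 18.7% were at least 2-fold lower. The division signals lay between 5.44 and 9.07 in SMiNs and between 7.56 and 10.36 in C6 glioma. Their differences ran from -2.58 to -0.80 with a median of -1.72. The differences of Hmga1 (-1.38) and Myc (-1.50) lay within that range. Hmga2 and Igf2bp2 have only lower bounds. With their SMiN values set to the floor, the differences of Hmga2 (-3.50) and Igf2bp2 (-2.78) lay below that range. With the floor at the 99th percentile of receptors, the bounds were 5.68-fold for Hmga2 and 3.46-fold for Igf2bp2. These smaller bounds do not place either gene against the range. The part of the lower division signal in the lower signals of these 4 genes was not tested. Of 9 markers of C6 glioma and oligodendrocyte precursors, 6 were lower by 2-fold or more. The others were Sox10, with a difference of -0.40, Olig2, with 5.29 on both arrays, and S100b, which was 1.72-fold higher. Of 12 neuronal markers only Tubb3, a neuronal tubulin, was higher by 2-fold, and 4, among them Dcx and Stmn2, were under the floor on both arrays. Of 7 astrocyte markers measured, 2 were higher by 2-fold: the glutamate transporter gene Slc1a2 had 7.41 in SMiNs and 4.37 in C6 glioma, at least 6.63-fold higher, and Atp1b2 was 2.12-fold higher. Aqp4, Slc1a3 and Sox9 were under the floor on both arrays, and Gfap had 5.40 in SMiNs and 5.97 in C6 glioma. Of 5 oligodendrocyte markers measured, 1, the myelin enzyme gene Cnp, was lower by 2-fold (3.28-fold). Of 6 markers of microglia, none differed by 2-fold and 5 lay under the floor on both arrays. Of 5 fibroblast markers measured, Postn and Col1a1 were at least 2-fold lower and Dcn and Lum lay under the floor on both arrays. The marker lists differed in how many genes had a C6 glioma signal at least 2-fold over the SMiN floor. These were 8 of 9 glioma and precursor markers, 2 of 12 neuronal and 1 of 7 astrocyte markers. For oligodendrocytes it was 1 of 5, for microglia 0 of 6 and for fibroblasts 2 of 5. The marker counts were not tested against each other or against all named genes.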

How the data were processed

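Total RNA of SMiNs and of undifferentiated C6 glioma was hybridised to 2 rat whole-transcript arrays (Affymetrix), 1 each. The authors analysed the scans with Affymetrix GeneChip Command Console Software and deposited log2 signals per probe set. How probe sets were summarized and normalized, and on which genome build, is not given in the sources used here. That the base is 2 was taken from the values. The number of arrays limits the precision.

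Of 36685 probe sets, 18511 had 1 gene symbol in the platform annotation, 575 had several and 17599 were unnamed here. Of the 18511, 18394 were found in RefSeq, which changed 0 symbols. The brightest probe set over both arrays stood for its gene. Values were used as deposited. The floor rule took receptors by the symbols Olr, Vom1r and Vom2r. Most olfactory receptors in the annotation have symbols starting with Or, so a floor with these was added.

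The genes and lists were chosen with earlier results of these data known. The text names all 10 genes, let-7 genes and up to 4 genes each way per list that differed by 2-fold with the brighter value at the floor or above, or any gene of lists of 13 or fewer. Hmga1l1, Mycs, Mir98, Trim71, Dis3l2, Ncl, Aurka and Usp28 were named after their values were seen. A 2-fold difference has no test. The code was tested on simulated data with known shifts, which is a check of the code and of no result. Alternatives were other scalings, floors, thresholds, filters and summaries. Python 3.11.15, numpy 2.4.6, pandas 2.3.3 and matplotlib 3.10.9 were used.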

Additional observations from a re-analysis of the deposited data

How the results depend on the processing

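With 1 array per condition, every value describes this pair of arrays, and no replicate could be left out. No paired analysis was possible because the groups hold 1 sample each. Hmga1, Hmga2, Igf2bp2 and Myc were at least 2-fold lower in SMiNs under median centring, quantile normalization and centring on the receptor mean. Each centring moves every difference by 1 constant (-0.06 for the median, -0.22 for the receptor mean). Both constants are negative, so neither centring could remove a lower call. With values under the floor set to it these genes were also at least 2-fold lower, but this setting could change only Hmga2 and Igf2bp2 among them. The mean of all probe sets could change no member, because each had 1 probe set. The differences ranged from -1.60 to -1.29 for Hmga1, from -4.47 to -3.50 for Hmga2, from -3.10 to -2.78 for Igf2bp2 and from -1.72 to -1.33 for Myc. Centring on the receptor mean shifted the median of all genes by -0.22. Lin28a ranged from 0.38 to 0.60 and Mycn from 0.09 to 0.31, while Lin28b ranged from -0.22 to 0.37, with a sign that depends on the setting. At 4-fold, 2 genes were lower, also 2 against the floor. At 1.5-fold, 5 were lower and 1 was higher. The median of the 9 genes was -1.02 with genes under the floor on both arrays left out, -1.09 as a mean and -1.38 without genes of equal value, a setting added after the data were examined. With the floor at the 99th percentile of receptors, 2 of the 9 genes were at or above it in SMiNs and 5 in C6 glioma. Hmga2 was then at least 5.68-fold and Igf2bp2 at least 3.46-fold lower.

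Of 238 counts for the other lists and settings, 18 moved by over 1.5 times. MYC-induced genes at least 2-fold lower were 3 as deposited, 5 with median centring and 9 with receptor centring. IGF2BP partners lower were 2 as deposited, 1 with quantile normalization and 5 with receptor centring, and microRNA processing genes lower were 2 as deposited and 1 with quantile normalization. The other 13 were counts of higher genes of 1 or 2 that lost 1 gene. Of 136 list medians, 5 moved by over 1.5-fold or to the other side of 2-fold. The median of IGF2BP-bound messages was 0.29 as deposited and -0.61 without genes under the floor, that of MYC-repressed genes was 0.01 and as a mean -0.59, and the other 3 were of fibroblast markers. The causes were not tested.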
